A study of Rattus norvegicus with 21 samples.

Results

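The late stage of a rat model of intrahepatic cholangiocarcinoma is described here, as the difference between the tumour and the liver of the same animal on day 25 after inoculation. The 6 arrays concerned, of 21 in the series, are 3 tumours labelled BDEneu Tumor and 3 pieces of normal right liver lobe (RLL), chosen by their labelled tissue and day and paired by rat number. Rats 7, 8 and 9 each gave 1 tumour and 1 liver piece. All were male young adult Fischer 344 rats, inoculated at the same time, and the tissue was snap-frozen. The same rats gave 3 peritoneal metastases (BDEneu Met, day 25), and 6 further rats gave tumour and liver on days 10 and 15; these arrays entered only where they are named. Every liver came from a tumour-bearing rat, so no liver of a rat without a tumour is part of the comparison. The descriptions of the 3 liver samples give day 55, whereas their titles and sources give day 25, which was used. Each of 14218 genes was represented by 1 probe set, the one with the highest mean over the 21 arrays.

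Intrahepatic cholangiocarcinoma is a carcinoma of the bile duct lineage that grows inside the liver, usually with a dense fibrous stroma. BDEneu cells are rat biliary epithelial cells transformed with an activated neu gene, the rat Erbb2 oncogene, so every tumour in this model derives from 1 transformed line. The liver around it consists mainly of hepatocytes, which make most plasma proteins and carry out urea synthesis, bile acid synthesis and the oxidation of foreign compounds. A bulk sample of each tissue mixes epithelium, stroma, vessels and blood cells, and fewer cells of a type cannot be told apart from less RNA per cell.

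The rats were not alike, and both arrays of rat 7 stood apart. Across genes, the tumour array of rat 7 correlated at 0.953 and 0.929 with those of rats 8 and 9, which correlated at 0.984 with each other; the liver array of rat 7 correlated at 0.962 and 0.951 with the livers of rats 8 and 9, which correlated at 0.988. The mean log2 level of 10 hepatocyte markers was 7.68, 10.19 and 10.52 in the tumours of rats 7, 8 and 9, against 12.9, 12.44 and 12.42 in their livers. In the metastases of these rats the same mean was 5.8, 7.05 and 5.56. The tumours of rats 8 and 9 thus held more hepatocyte signal than that of rat 7. Its part in the differences below was not tested. Of 5 measured biliary markers, all were called higher in tumour, with means of 11.75, 11.55 and 11.24 in the tumours and 7.56, 6.09 and 5.67 in the livers, the liver of rat 7 being the highest. All 7 fibroblast markers were called higher as well, with means between 12.18 and 13.06 in the tumours and between 8.12 and 9.37 in the livers. Both tissues thus carried the markers of their labels.

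Tumour and liver differed across much of the array: 7124 of 14218 genes (50.1%) were called at an adjusted p under 0.05 in limma, 3938 higher in tumour (27.7%) and 3186 lower (22.4%). A change of at least 2-fold was called for 1648 genes higher (11.6%) and 1168 genes lower (8.21%). Large decreases were more frequent than large increases at 8-fold (206 lower and 144 higher), though by single rats this held in rat 7 only, but the largest changes were increases: 56 genes were at least 16-fold higher and 16 at least 16-fold lower, and all 15 genes past 32-fold were higher in tumour. Among the genes called at least 2-fold, 2806 of 2816 had the same sign in all 3 rats. The calls came from these same arrays, which favours a shared sign, so the count is no separate measure of agreement between rats. In 453 of the 1648 genes that were higher (27.5%) the liver mean lay below the lowest array median (5.98 log2 units), and in 230 of the 1168 that were lower (19.7%) the tumour mean did. Those genes lay in the lower part of the scale in one tissue. The split by direction depended on scaling. Centring each array on its median gave 3043 genes higher and 5101 lower (37.4% higher, against 55.3%), and 1311 and 1409 past 2-fold (48.2% higher, against 58.5%). It moved the median difference of all genes by -0.17.

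**Figure D1:**
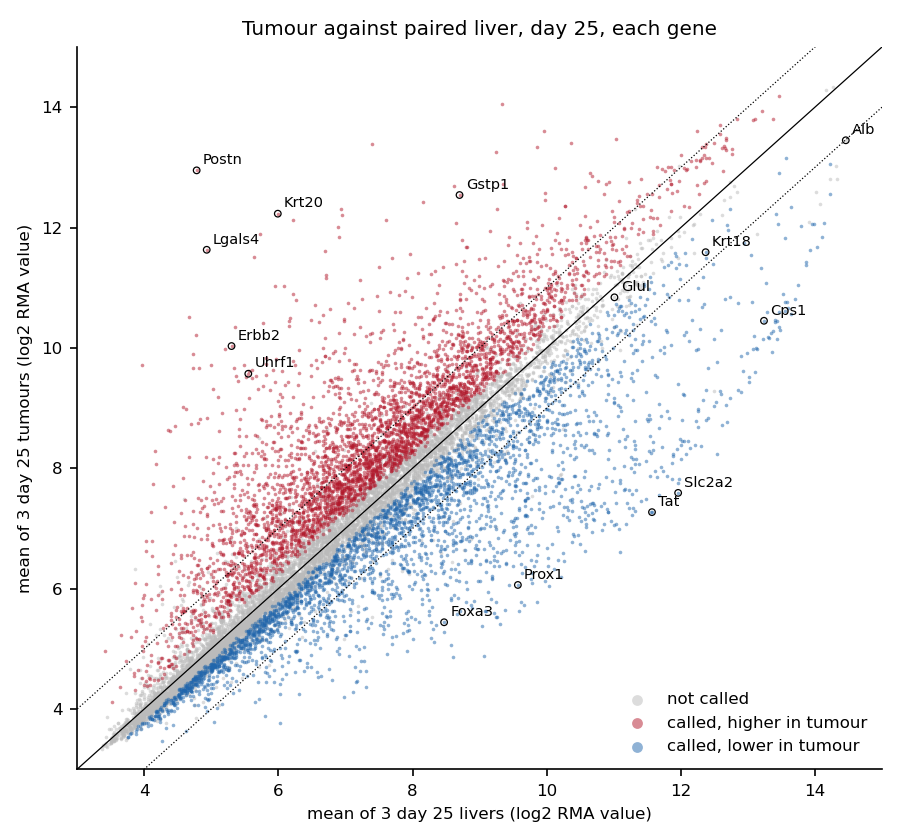
Mean log2 value of each of 14218 genes in the 3 day 25 tumours (vertical axis) against the 3 day 25 livers (horizontal axis). Red points were called higher in tumour and blue points lower, the solid line marks equality and the dotted lines a 2-fold difference. Postn lies highest above the line, whereas the called decreases fan out at high liver values.

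Matrix and epithelial genes led the increases. Periostin (Postn), a matricellular protein of activated fibroblasts, measured 12.76, 13.09 and 13.01 log2 units in the tumours of rats 7, 8 and 9, against 4.43, 5.75 and 4.16 in their livers. The groups did not overlap, which was a condition for naming Postn here and held for 7776 of 14218 genes (54.7%). The log2 difference of 8.17 ± 0.60 (SE, n = 3 each, adjusted p = 3.09e-08 in limma) corresponds to 289-fold. This SE, as for all differences here, used 1 spread per gene over all 21 arrays, not that of these 6 alone. Galectin 4 (Lgals4), a lectin of intestinal and tumour epithelium, measured 11.83, 11.41 and 11.64 in tumour and 5.07, 4.67 and 5.05 in liver, a log2 difference of 6.70 ± 0.29 (adjusted p = 1.16e-10). Keratin 20 (Krt20), an intermediate filament protein of gut-type epithelium, measured 12.78, 12.09 and 11.82 in tumour and 6.47, 5.73 and 5.77 in liver. Its difference of 6.24 ± 0.31 was followed by keratin 7 (Krt7, 6.17 ± 0.31), tetraspanin 8 (Tspan8, 5.98 ± 0.36), keratin 19 (Krt19, 5.91 ± 0.45) and the laminin-332 chain Lamb3 (5.86 ± 0.23). Krt7 and Krt19 mark bile duct epithelium. In the livers, Krt19 reached 7.77 in rat 7 and 5.87 and 4.98 in rats 8 and 9, and Tspan8 showed the same order with 8.56, 7.18 and 6.46.

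**Figure D2:**
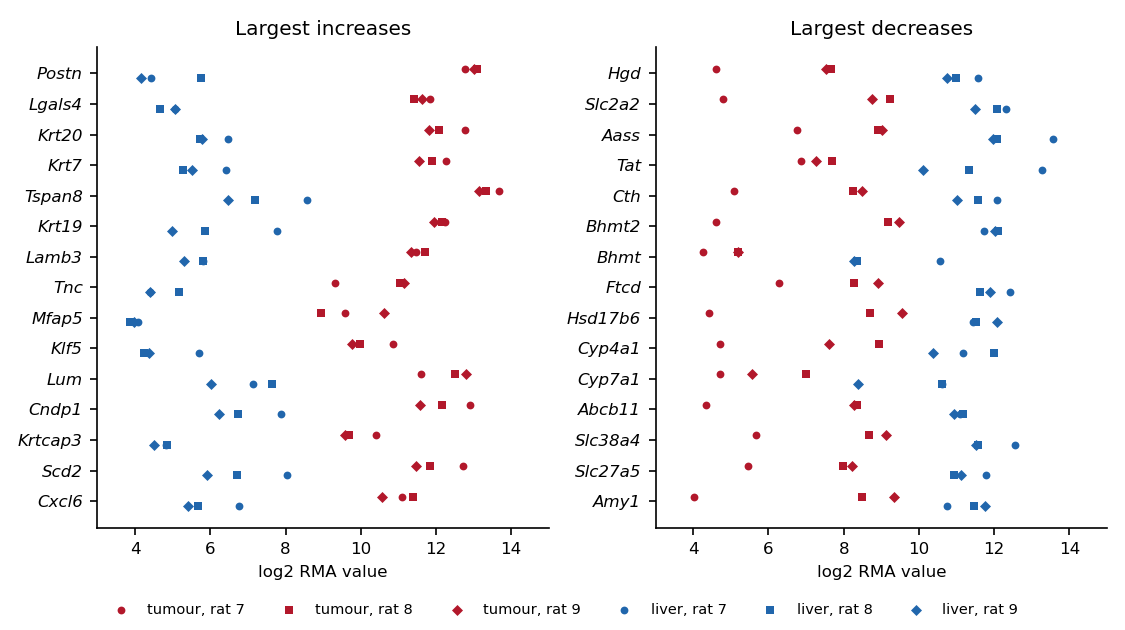
Log2 values of the 15 genes with the largest called increase (left) and the 15 with the largest called decrease (right), in each tumour (red, upper points of a row) and each liver (blue, lower points); circles are rat 7, squares rat 8 and diamonds rat 9. Genes were chosen among those without overlap, so on the left every tumour lies to the right of every liver. On the right the tumour of rat 7 lies far below those of rats 8 and 9 for most genes.

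Among the lists compiled for this tissue pair, 17 of 25 measured keratin, junction and basal adhesion genes were higher and 4 lower, with a median log2 difference of 1.96 against -0.01 over all genes tested. The direction was not common to all of them: desmoglein 2 (Dsg2), a cadherin of desmosomes, measured 9.30, 9.69 and 9.32 in tumour and 10.85, 10.78 and 10.42 in liver, a fall of 1.25 ± 0.15 (SE). Keratin 8 (Krt8), which hepatocytes and duct cells share, was not called, at 12.37, 12.21 and 11.93 in tumour and 12.73, 11.99 and 10.76 in liver. Of 29 measured surface and secreted epithelial products 17 were higher and 1 lower (median 1.35). Osteopontin (Spp1), a secreted phosphoprotein of duct cells and macrophages, was 4.50 ± 0.44 higher, and the calcium-binding S100a11 3.63 ± 0.24 higher. The epithelial transcription factors moved with them, 10 of 13 higher and 1 lower (median 1.06). Klf5, a zinc finger factor of proliferating epithelium, measured 10.87, 9.99 and 9.76 in tumour and 5.69, 4.25 and 4.37 in liver, a difference of 5.43 ± 0.39. Its 3 weaker probe sets gave 4.64, 2.21 and 0.20. Sox4 rose by 3.70 ± 0.25, Elf3 by 2.49 ± 0.20 and Id1 by 1.81 ± 0.16. Sox17, a factor of endothelium and of the embryonic biliary tract, measured 12.8, 11.51 and 11.22 in tumour against 7.49, 6.43 and 6.81 in liver.

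Probe sets of one gene did not always agree. The 6 weaker probe sets of Sox4 gave 2.81, 2.19, 2.02, 0.40, 0.25 and 0.18, and the 2 of Sox17 gave 4.07 and -0.08. Of genes named below, the other probe sets gave 2.09, 2.25 and -0.06 for Itga6 and -2.60 and -0.73 for Egfr. The single other probe set gave 0.09 for Plaur, 0.15 for Smad3, 0.04 for RT1-Bb, -0.20 for Itga9, -0.43 for Gata4 and 1.94 for Etv4.

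Several increases were nearly the same in every rat. The serine protease Prss22 measured 10.69, 11.29 and 11.07 in tumour and 6.13, 6.13 and 5.99 in liver, a difference of 4.93 ± 0.19 (SE, adjusted p = 6.61e-11). Tissue factor (F3), the trigger of coagulation, measured 9.62, 10.02 and 9.34 in tumour and 4.90, 4.84 and 4.41 in liver, a difference of 4.94 ± 0.25. Caveolin 1 (Cav1), a coat protein of plasma membrane pits, differed by 4.53 ± 0.24, and its 3 probe sets gave 4.53, 4.84 and 4.2. The membrane repair protein Myof differed by 4.69 ± 0.29 and the receptor phosphatase Ptprz1 by 4.72 ± 0.27. In all 5 the lowest tumour lay above the highest liver, but genes were named here only where the tissues did not overlap, as in 54.7% of all genes. They were also chosen for a large change, in part for a large change in the rat that changed least. That choice favours increases alike in every rat, so their likeness is no separate result. A weaker probe set of Ptprz1 gave 1.36.

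The receptor that names the model followed the same pattern. Erbb2 measured 10.73, 10.0 and 9.36 in the tumours of rats 7, 8 and 9, against 5.69, 5.23 and 4.98 in their livers, a log2 difference of 4.73 ± 0.37 (SE, adjusted p = 7.13e-08), or 26.6-fold. The metastases of these rats held 10.8, 9.47 and 10.09. The probe set does not distinguish the introduced from the endogenous gene as far as the files show. Of 22 measured genes of ErbB receptors, ligands and feedback 9 were higher and 7 lower, against 27.7% and 22.4% of all genes. The ligand amphiregulin (Areg) measured 9.59, 7.73 and 6.88 in tumour and 4.17, 4.07 and 4.26 in liver, and the ligand Hbegf was 2.72 ± 0.23 higher. Etv4, an ETS factor downstream of ERK signalling, measured 9.28, 8.29 and 7.26 in tumour and 4.25, 3.96 and 4.28 in liver. In the tumours Erbb2, Areg and Etv4 had the same order, rat 7 highest and rat 9 lowest. Egfr fell by 2.20 ± 0.43, the feedback inhibitor Errfi1 by 1.62 ± 0.26, and the ligand of Met, Hgf, by 2.23 ± 0.19; the feedback gene Spry4 was not called (7.71, 8.19 and 7.57 in tumour, 7.90, 7.92 and 7.93 in liver). Of 23 immediate early genes, which answer growth factor signals without new protein synthesis, 12 were higher and 1 lower. Fosl1 (2.73 ± 0.36) and the ERK phosphatase Dusp5 (2.58 ± 0.32) led them, and the count higher was 7 without the tumour of rat 8 (8 without the tumour of rat 7, the liver of rat 8 or rat 8).

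Stroma formed the other large group of increases. Collagens and the enzymes that modify them were higher for 22 of 30 measured genes and lower for 1, with a median log2 difference of 2.11. The shares over all genes tested were 27.7% higher and 22.4% lower. Col1a1, the main chain of fibrillar collagen, measured 12.28, 13.62 and 13.84 in tumour and 10.04, 9.85 and 7.85 in liver, a difference of 4.00 ± 0.64 (SE, adjusted p = 9.21e-05). Col15a1, a basement membrane collagen, was 4.18 ± 0.57 higher, and the crosslinking enzyme Loxl1 measured 10.2, 10.15 and 10.36 in tumour and 6.94, 7.09 and 6.66 in liver. Col18a1, a basement membrane collagen, fell by 2.02 ± 0.30. Matricellular proteins, proteoglycans and elastic fibre genes were higher for 25 of 34 and lower for 1 (median 1.55). With 1 array or rat left out, between 15 and 24 of the collagen list and between 18 and 27 of the matricellular list were called higher. Tenascin C (Tnc) measured 9.31, 11.05 and 11.16 in tumour and 4.41, 5.17 and 4.41 in liver, and lumican (Lum) 11.59, 12.5 and 12.81 in tumour and 7.13, 7.65 and 6.02 in liver. The tumour of rat 7 was the lowest of the 3 for Col1a1, Tnc and Lum, whereas Mfap5, a microfibril protein, was lowest in rat 8 (9.58, 8.94 and 10.62 in tumour, 4.07, 3.86 and 3.98 in liver). The median of the collagen list was 0.89 in rat 7, 1.91 in rat 8 and 2.77 in rat 9.

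Contractile and matrix protease genes were called higher more often than lower. Over all genes tested 27.7% were called higher and 22.4% lower. Of 25 myofibroblast and stellate cell genes 13 were higher and 4 lower (median 1.17). Tropomyosin 2 (Tpm2) measured 8.97, 9.63 and 10.27 in tumour and 5.34, 5.72 and 5.61 in liver, a difference of 4.07 ± 0.34 (SE), though its weaker probe set gave 0.16. Transgelin (Tagln) was 3.39 ± 0.56 higher and S100a4 2.86 ± 0.32 higher. Of 33 matrix proteases and inhibitors 19 were higher and 3 lower. Macrophage elastase (Mmp12) measured 10.23, 10.58 and 10.45 in tumour and 5.89, 6.17 and 5.25 in liver, the urokinase receptor Plaur was 3.20 ± 0.22 higher, and Mmp19 fell by 1.88 ± 0.36. Of 28 TGF-beta and activin genes 13 were higher and 4 lower, among them the signal transducer Smad3 (2.13 ± 0.26 higher) and the follistatin-like Fstl3 (2.12 ± 0.21 higher), while Bmp2 fell by 1.29 ± 0.23. Of 19 integrins 10 were higher and 3 lower. With 1 array or rat left out, the counts higher were 10 to 15 for myofibroblast genes and 16 to 21 for proteases and inhibitors. They were 10 to 15 for TGF-beta and activin genes and 8 to 10 for integrins. The laminin-332 receptor chains Itgb4 (2.75 ± 0.28) and Itga6 (2.21 ± 0.25) rose, as Lamb3 did, and Itga9 fell by 1.78 ± 0.17.

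Cell cycle genes were nearly all higher. All 27 measured genes of mitosis and cytokinesis were called higher, with a median log2 difference of 2.04, and 25 of 27 genes of DNA replication and S phase were higher and none lower (median 1.61). Uhrf1, which copies DNA methylation at replication forks, measured 10.0, 9.40 and 9.31 in tumour and 4.91, 5.99 and 5.74 in liver, a difference of 4.02 ± 0.33 (SE, adjusted p = 1.05e-07). Mcm6, a subunit of the replicative helicase, measured 9.87, 9.24 and 9.19 in tumour and 4.56, 7.04 and 6.26 in liver. Cyclin A2 (Ccna2) showed 10.14, 9.20 and 9.31 in tumour and 4.17, 6.86 and 6.43 in liver, and the cytokinesis regulator Ect2 9.93, 9.28 and 9.08 in tumour and 4.85, 7.29 and 6.27 in liver. The liver of rat 7 was the lowest for each of these, and the list medians in rat 7 (3.33 for mitosis, 2.42 for replication) were above those in rat 8 (1.11 and 0.92) and rat 9 (1.49 and 1.27). Without rat 7 the medians were 1.36 and 1.07, and over the settings that left out 1 array or 1 rat between 20 and 27 of the mitosis genes were called. The tumour suppressor Cdkn2a was 3.28 ± 0.23 higher, at 7.87, 7.78 and 7.47 in tumour and 4.37, 4.50 and 4.42 in liver, and cyclin D1 (Ccnd1) 2.66 ± 0.37 higher, while Cdkn1a was not called (10.18, 10.05 and 9.63 in tumour, 10.57, 8.94 and 7.91 in liver) but was higher without the liver of rat 7 (1.53, adjusted p = 0.00188) or without rat 7 (1.42, adjusted p = 0.0079). Nucleolar proteins of ribosome biogenesis were higher for 16 of 19 genes and lower for none (median 0.75), with fibrillarin (Fbl) at 1.77 ± 0.14.

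Letters recognised by known cell cycle factors were counted in the promoters of these genes. Of 14218 genes, 11701 (82.3%) had a promoter in RefSeq (build GRCr8), taken from 250 bases before to 50 bases after the gene start. On either strand, the E2F letters TTTCCCGC or TTTGGCGC occurred in 10 of 24 promoters of the replication list (41.7%), in 0 of 22 of the mitosis list, in 4.52% of the promoters of genes at least 2-fold higher, in 0.934% of those at least 2-fold lower and in 2.59% of all. The NF-Y letters CCAAT occurred in 18 of 22 promoters of the mitosis list (81.8%) and in 14 of 24 of the replication list (58.3%), against 38.6% for genes at least 2-fold higher, 40.5% for those at least 2-fold lower and 37.3% of all. The promoters of Mcm6 and Ect2, shown as 1 example of each, are written 5′ to 3′ on the strand of the gene with all matches in capitals.
Mcm6 (GRCr8 chr13:42404303-42404602, minus strand): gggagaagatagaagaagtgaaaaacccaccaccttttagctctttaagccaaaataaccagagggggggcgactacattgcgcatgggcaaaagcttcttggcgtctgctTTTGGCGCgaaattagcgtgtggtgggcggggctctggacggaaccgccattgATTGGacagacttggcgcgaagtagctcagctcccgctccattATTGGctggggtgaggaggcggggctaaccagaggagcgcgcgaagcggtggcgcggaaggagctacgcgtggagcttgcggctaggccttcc
Ect2 (GRCr8 chr2:111966577-111966876, minus strand): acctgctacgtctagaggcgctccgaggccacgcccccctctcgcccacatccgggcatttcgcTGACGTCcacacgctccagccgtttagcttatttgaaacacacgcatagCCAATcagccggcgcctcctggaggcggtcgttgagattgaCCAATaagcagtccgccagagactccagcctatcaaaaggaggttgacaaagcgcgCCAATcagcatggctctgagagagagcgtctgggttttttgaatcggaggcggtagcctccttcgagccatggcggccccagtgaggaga
In Mcm6 the E2F match begins at -139 from the gene start and the CCAAT matches, read as ATTGG on this strand, at -86 and -43. In Ect2 the 3 CCAAT matches begin at -137, -96 and -40, and a CRE match (GACGTCA, read as TGACGTC) at -186. No match overlaps another in these promoters, and a match is not evidence that the factor binds there.

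Most genes of a combined glycolysis and hypoxia list were higher as well. Of 31 glycolytic and hypoxia-induced genes 23 were higher and none lower (median 1.21). Carbonic anhydrase 9 (Car9), a hypoxia-induced enzyme of the cell surface, measured 9.92, 8.95 and 8.11 in tumour and 5.6, 5.57 and 5.26 in liver, a difference of 3.51 ± 0.37 (SE, adjusted p = 1.39e-06). The oxygen sensor Egln3 measured 10.54, 10.01 and 8.93 in tumour and 8.03, 4.75 and 4.64 in liver, the liver of rat 7 being well above the others, and Ndrg1 was 3.05 ± 0.42 higher. The glucose transporter Slc2a1 was 2.54 ± 0.50 higher, at 9.98, 9.91 and 8.16 in tumour and 7.38, 6.48 and 6.58 in liver. Its hepatocyte counterpart Slc2a2 measured 4.78, 9.23 and 8.76 in tumour and 12.31, 12.08 and 11.49 in liver, a fall of 4.37 ± 0.92 (without rat 7, -2.79). Lactate dehydrogenase A (Ldha) was not called, at 12.89, 12.73 and 12.44 in tumour and 12.17, 13.17 and 13.03 in liver, but was lower without rat 7 (-0.51, adjusted p = 0.0354). In the tumours Car9, Egln3, Ndrg1 and Slc2a1 were all lowest in rat 9. Of 21 Nrf2-regulated antioxidant genes 9 were higher and 4 lower, against 27.7% and 22.4% of all genes. Gstp1, a glutathione transferase of duct cells and of preneoplastic rat hepatocytes, measured 12.77, 12.42 and 12.41 in tumour and 9.12, 8.63 and 8.34 in liver, and Nqo1 fell by 2.28 ± 0.26.

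Decreases were led by enzymes of amino acid breakdown. Of 30 measured genes of the urea cycle and amino acid breakdown 29 were lower and none higher, with a median log2 difference of -3.39. Homogentisate dioxygenase (Hgd), of tyrosine breakdown, measured 4.61, 7.67 and 7.53 in the tumours of rats 7, 8 and 9, against 11.58, 10.99 and 10.74 in their livers, a fall of 4.50 ± 0.71 (SE, adjusted p = 7.44e-05), or 22.6-fold. Tyrosine aminotransferase (Tat) measured 6.86, 7.69 and 7.26 in tumour and 13.27, 11.33 and 10.11 in liver. Here the 3 tumours were alike and the livers differed, rat 7 again highest. Aass, of lysine breakdown, measured 6.77, 8.90 and 9.01 in tumour and 13.57, 12.07 and 11.97 in liver. Cystathionine gamma-lyase (Cth) fell by 4.27 ± 0.85 and the histidine enzyme Ftcd by 4.15 ± 0.66. Glycine decarboxylase (Gldc) measured 5.25, 6.07 and 5.56 in tumour and 9.77, 8.98 and 8.53 in liver, though its 2 weaker probe sets gave -0.81 and -0.94. Ornithine aminotransferase (Oat) was the member not called (9.76, 9.60 and 10.04 in tumour, 11.51, 9.52 and 9.32 in liver). Bhmt and Bhmt2, neighbouring methyltransferases that may share probe signal, fell by 4.19 ± 0.85 and 4.21 ± 0.93, and Bhmt2 was at -2.63 without the tumour of rat 7.

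Other hepatocyte pathways fell with them. Of 24 genes of bile acid synthesis and hepatobiliary transport 19 were lower and none higher (median -2.97). Cyp7a1, which catalyses the first and limiting step from cholesterol to bile acids, measured 4.72, 7.01 and 5.57 in tumour and 10.62, 10.6 and 8.37 in liver, and the bile salt export pump Abcb11 4.33, 8.35 and 8.28 in tumour and 11.1, 11.18 and 10.94 in liver. Of 36 cytochromes P450 of families 1 to 4, 28 were lower and 1 higher (median -3.11). The exception was Cyp2s1, an extrahepatic form, at 6.48, 6.19 and 6.43 in tumour and 5.52, 5.46 and 5.79 in liver (0.78 ± 0.17, SE). Cyp4a1, a fatty acid hydroxylase, fell by 4.10 ± 0.81, and Cyp2j3 and Cyp3a18 by 3.88 ± 0.55 and 3.84 ± 0.69; the P450 families hold near-identical members, so single members are uncertain. Of 16 genes of gluconeogenesis and liver sugar enzymes 13 were lower (median -2.27), with glycogen synthase 2 (Gys2) at 3.99, 6.25 and 6.93 in tumour and 10.04, 9.29 and 9.66 in liver. Of 24 genes of fatty acid oxidation 17 were lower and none higher (median -1.71), with Acox2 at -3.45 ± 0.55. Iron handling genes were lower for 10 of 17 and higher for none, led by transferrin receptor 2 (Tfr2), at 4.66, 8.30 and 8.85 in tumour and 10.77, 10.89 and 11.09 in liver (-3.65 ± 0.74, and -2.35 without the tumour of rat 7). The pericentral enzyme glutamine synthetase (Glul), which other tissues also make, was not called, at 10.61, 10.89 and 11.03 in tumour and 10.69, 11.27 and 11.06 in liver.

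Hepatocyte transcription factors fell too. Of 19 measured, 17 were lower and none higher (median -2.37, and between -2.55 and -1.94 with any array or rat left out). Foxa3 measured 5.12, 5.46 and 5.76 in tumour and 8.29, 8.58 and 8.55 in liver, a fall of 3.03 ± 0.25 (SE, adjusted p = 1.08e-07). Prox1 measured 4.83, 6.61 and 6.74 in tumour and 9.51, 9.67 and 9.51 in liver, and its weaker probe set gave -0.42. Hnf4a, the nuclear receptor that maintains hepatocyte identity, measured 6.71, 8.95 and 9.70 in tumour and 11.32, 11.16 and 11.43 in liver, a fall of 2.85 ± 0.71 that its 2 other probe sets gave as -2.57 and -2.61. Creb3l3 fell by 2.92 ± 0.50. Nr0b2 was not called, at 5.61, 6.23 and 6.69 in tumour and 6.12, 6.58 and 9.01 in liver.

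Letters recognised by liver factors were counted in the same way. The HNF1 letters GTTAATNAT occurred in 21 of 964 promoters of genes at least 2-fold lower (2.18%), against 0.222% for genes at least 2-fold higher and 0.496% of all. The HNF4 letters CAAAGTCCA occurred in 1.35%, against 0.444% and 0.367%. For C/EBP (TTGCNNAA) the shares were 11.9%, 7.77% and 9.13%, and for AP-1 (TGANTCA) they were 5.5%, 7.48% and 5.43%. TEAD letters (ACATTCC) occurred in 4.25%, 3.18% and 2.97%, and the CRE in 3.11%, 5.48% and 4.97%. The promoters of Plg and Baat, shown as 1 example of the HNF1 and 1 of the HNF4 letters and chosen for these matches, have them in capitals.
Plg (GRCr8 chr1:50915357-50915656, minus strand): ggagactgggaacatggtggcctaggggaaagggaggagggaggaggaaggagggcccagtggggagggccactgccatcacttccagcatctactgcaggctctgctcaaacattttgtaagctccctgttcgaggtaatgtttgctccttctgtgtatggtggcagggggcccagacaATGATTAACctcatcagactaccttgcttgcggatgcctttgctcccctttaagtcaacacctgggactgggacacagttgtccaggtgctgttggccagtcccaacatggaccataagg
Baat (GRCr8 chr5:68656088-68656387, minus strand): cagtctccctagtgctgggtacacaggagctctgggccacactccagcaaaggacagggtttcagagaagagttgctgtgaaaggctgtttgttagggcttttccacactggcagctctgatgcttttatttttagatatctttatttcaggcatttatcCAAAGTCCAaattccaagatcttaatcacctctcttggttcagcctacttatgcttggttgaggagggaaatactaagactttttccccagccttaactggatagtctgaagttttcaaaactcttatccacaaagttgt
The HNF1 match of Plg begins at -70 and is read as its reverse complement, and the HNF4 match of Baat begins at -90. Plasminogen (Plg), the precursor of plasmin, measured 7.27, 11.11 and 11.56 in tumour and 12.99, 13.09 and 13.3 in liver, a fall of 3.15 ± 0.78 (SE). Baat, which joins bile acids to taurine or glycine, measured 5.28, 9.54 and 9.83 in tumour and 11.17, 12.31 and 12.18 in liver, a fall of 3.67 ± 0.87. Without the tumour of rat 7 their differences were -1.79 and -2.21. A fit on the 6 arrays alone left the differences unchanged but lost both calls (adjusted p = 0.0748 for Plg and 0.0649 for Baat). With rat as a block in that fit Baat was called (adjusted p = 0.0311) and Plg was not (adjusted p = 0.0616).

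How far a secreted hepatocyte product appeared to fall depended on the rat. Of 48 plasma protein, coagulation and complement genes 43 were lower and none higher, with a median log2 difference of -3.08. The median was -5.71 in rat 7, -1.97 in rat 8 and -1.63 in rat 9, and -1.65 over the fit without the tumour of rat 7. With only the 6 day 25 arrays in the fit 14 of the 48 were called lower. The heparin cofactor Serpind1 measured 6.08, 9.32 and 9.60 in tumour and 11.95, 12.06 and 12.38 in liver, and the lectin Mbl2 4.62, 8.49 and 8.90 in tumour and 10.66, 11.47 and 11.69 in liver (-3.94 ± 0.85, SE, and -2.58 without the tumour of rat 7). Albumin (Alb) was not called, at 11.68, 14.29 and 14.38 in tumour and 14.40, 14.48 and 14.51 in liver, near the highest value of the series (14.62). It was called lower without the tumour of rat 8 (-1.43) or of rat 9 (-1.48) and stood at -0.13 without that of rat 7. Of 22 acute phase genes 15 were lower, against 22.4% of all genes tested. Without the tumour of rat 7 or without rat 7 the count was 6, a share not far above that of all genes. It was 9 without the liver of rat 8 and 8 without the liver of rat 9.

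Across all genes the same contrast between rats held. Differences of at least 8-fold downward numbered 419 in rat 7, 70 in rat 8 and 16 in rat 9, whereas those upward numbered 214, 156 and 189. Among the 1168 genes called at least 2-fold lower, the median difference was -2.27 in rat 7, -1.71 in rat 8 and -1.54 in rat 9, and 832 of them (71.2%) were furthest down in rat 7. Their median difference between metastasis and liver was -2.28, -1.89 and -2.2 in the same rats, with the liver arrays shared. A tumour at -1.54 retained 34.5% of the liver value.

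**Figure D3:**
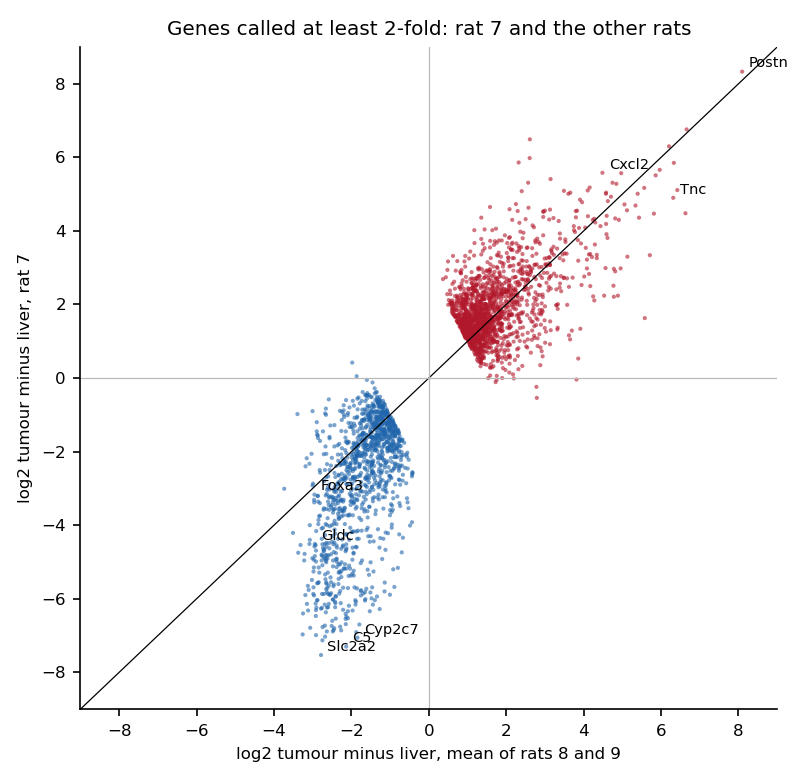
Log2 tumour minus liver in rat 7 (vertical axis) against the mean of rats 8 and 9 (horizontal axis), for the 2816 genes called at least 2-fold; red genes were higher in tumour and blue genes lower, and the line marks equality. Blue points reach -7.53 in rat 7, at Slc2a2, whereas the lowest single value was -4.19 in rat 8 and -3.43 in rat 9; red points spread to both sides of the line.

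Markers of other resident liver cells were lower as well. Of 11 Kupffer cell markers, those of the resident macrophages of the sinusoids, 6 were lower and none higher (median -1.74). The lectin Clec4f measured 5.77, 7.54 and 8.08 in tumour and 10.58, 10.33 and 10.61 in liver, and Cd5l 4.89, 8.51 and 8.62 in tumour and 11.25, 11.29 and 11.15 in liver. Their order over the tumours was that of the hepatocyte genes, rat 7 lowest. Of 12 sinusoidal endothelial genes 7 were lower and none higher, with the scavenger receptor Stab2 at 5.70, 6.67 and 6.88 in tumour and 8.90, 9.76 and 9.54 in liver (-2.99 ± 0.33, SE) and the transcription factor Gata4 at -1.65 ± 0.32. Of 23 general vessel genes 6 were higher and 2 lower, against 27.7% and 22.4% of all genes. The count higher was near the share of all genes, and it was 2 without rat 8, 3 without rat 9 and 9 without the tumour of rat 7. The junction protein Cldn5 rose by 1.34 ± 0.31 and the hyaluronan receptor Lyve1 fell by 2.08 ± 0.36.

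Many myeloid genes were higher. For the counts that follow, 27.7% of all genes tested were called higher and 22.4% lower. Of 25 macrophage genes 14 were higher and 1 lower (median 0.74). Lysozyme (Lyz2) measured 13.39, 13.28 and 13.74 in tumour and 10.99, 11.3 and 10.82 in liver, a difference of 2.44 ± 0.17 (SE), and the integrin Itgax was 2.00 ± 0.19 higher. Complement C1qa, made by resident and recruited macrophages, was not called (11.12, 11.45 and 11.84 in tumour, 11.74, 11.3 and 11.02 in liver). Of 14 neutrophil and interleukin 1 genes 6 were higher and 3 lower, with Il1a at 9.95, 10.21 and 9.85 in tumour and 6.38, 6.62 and 7.00 in liver. Of 30 chemokines 11 were higher and 4 lower. The neutrophil attractant Cxcl6 measured 11.11, 11.39 and 10.57 in tumour and 6.75, 5.68 and 5.41 in liver, and the monocyte attractant Ccl2 8.24, 10.2 and 10.48 in tumour and 5.25, 5.74 and 5.81 in liver. Of 25 dendritic cell and antigen presentation genes 8 were higher, 4 lower and 13 not called (median 0.16). The class II genes RT1-Bb (2.12 ± 0.26) and RT1-Da (2.10 ± 0.28) were among those higher, as was the lectin Clec10a (3.10 ± 0.31). The RT1 genes are a family of similar sequences. Of 31 T and NK cell genes 2 were higher and 5 lower; 11 were lower with arrays centred on their medians, and 2 without the tumour of rat 7, the liver of rat 7 or rat 7. Of 24 interferon response genes 2 were higher and 8 lower (4 without rat 8, without rat 9 or without the liver of rat 9, and 5 without the tumour of rat 7): the guanylate-binding proteins Gbp4 (9.59, 9.06 and 8.39 in tumour, 4.49, 4.53 and 4.71 in liver) and Gbp2 (3.48 ± 0.32) rose, while Ifi27 fell by 1.30 ± 0.28 and Stat2 by 1.02 ± 0.14.

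**Figure D4:**
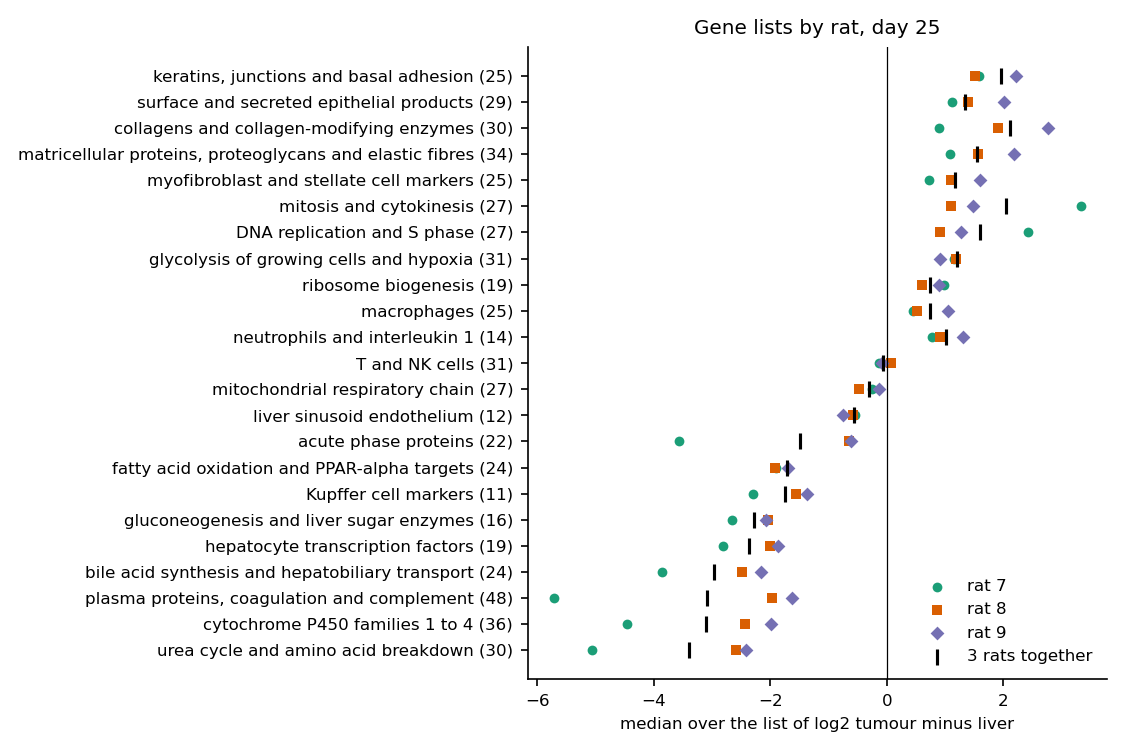
Median log2 difference, tumour minus liver, over each of 23 gene lists in rat 7 (circles), rat 8 (squares) and rat 9 (diamonds), with the median of the 3 rats together (bars); the number of measured genes stands after each name. Most hepatocyte lists lie furthest left in rat 7, collagen and matrix lists furthest right in rat 9, and cell cycle lists furthest right in rat 7.

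A few genes differed widely among the 3 tumours or the 3 livers. Among the tumours, pancreatic acinar markers were high in that of rat 9: amylase Amy2a3 measured 4.03, 3.60 and 11.37 in tumour and 3.74, 3.90 and 3.94 in liver, and chymotrypsinogen Ctrb1 4.48, 4.31 and 9.80 in tumour and 4.51, 4.40 and 4.55 in liver. Over 8 acinar markers the mean was 5.68, 5.37 and 8.55 in tumour and between 5.49 and 5.57 in liver, with none called. The metastasis of rat 8 had a higher mean, 11.02, against 5.5 and 5.4 in the metastases of rats 7 and 9. The gastric trefoil peptide Tff2 followed, at 5.00, 4.98 and 11.01 in tumour. The muscle actin Acta1 was high in the tumour of rat 7 (10.59, against 4.30 and 4.49 in those of rats 8 and 9, and 4.44 to 4.48 in the livers), and it was also raised in the metastases of rats 7 and 8 (8.53 and 10.46, against 4.21 in rat 9). The neutrophil attractant Cxcl2 measured 10.74, 11.88 and 6.40 in tumour and 5.16, 4.55 and 4.76 in liver, called higher all the same (4.85 ± 1.19, SE, adjusted p = 0.00286). In the liver of rat 7, 66 genes stood at least 4-fold above and 58 at least 4-fold below both other livers, against at most 11 either way for the livers of rats 8 and 9. Serine dehydratase (Sds), induced by fasting and glucagon, measured 6.71, 5.75 and 6.02 in tumour and 12.87, 7.95 and 6.71 in liver, and its called fall of 3.02 ± 1.14 lost the call without any one of the 3 tumours, without the liver of rat 7 and without rat 7 or rat 8. Wnt4 also differed widely among the livers (9.76, 6.63 and 4.85) and was not called, except lower without the liver of rat 9 (-2.56) or without rat 9 (-2.90).

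Few tumour-liver differences of day 25 were called different from those of days 10 and 15, and among those the liver mostly changed more than the tumour. The day 25 difference was called different from the mean of the earlier days for 98 genes, 35 higher (0.246%) and 63 lower (0.443%), and 2229 genes had an unadjusted p under 0.05. The count was 157 with rat as a replicate block. Scaling moved its split, with 47 higher and 53 lower after quantile normalization and 47 and 42 after median centring. In 87 of the 98 the liver changed more than the tumour between the earlier days and day 25, and in 88 the change of the liver was itself called (7.82% of all genes), against 2 for the tumour (0.0422%); these parts use the same arrays as the difference. Against day 10 alone 208 genes were called. Against day 15 alone limma called none, with 1283 genes at an unadjusted p under 0.05. The count also hung on single arrays: 10 without the tumour of rat 7, 18 without that of rat 8, 33, 16 and 273 without the livers of rats 7, 8 and 9, and 16, 5 and 272 without rats 7, 8 and 9.

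**Figure D5:**
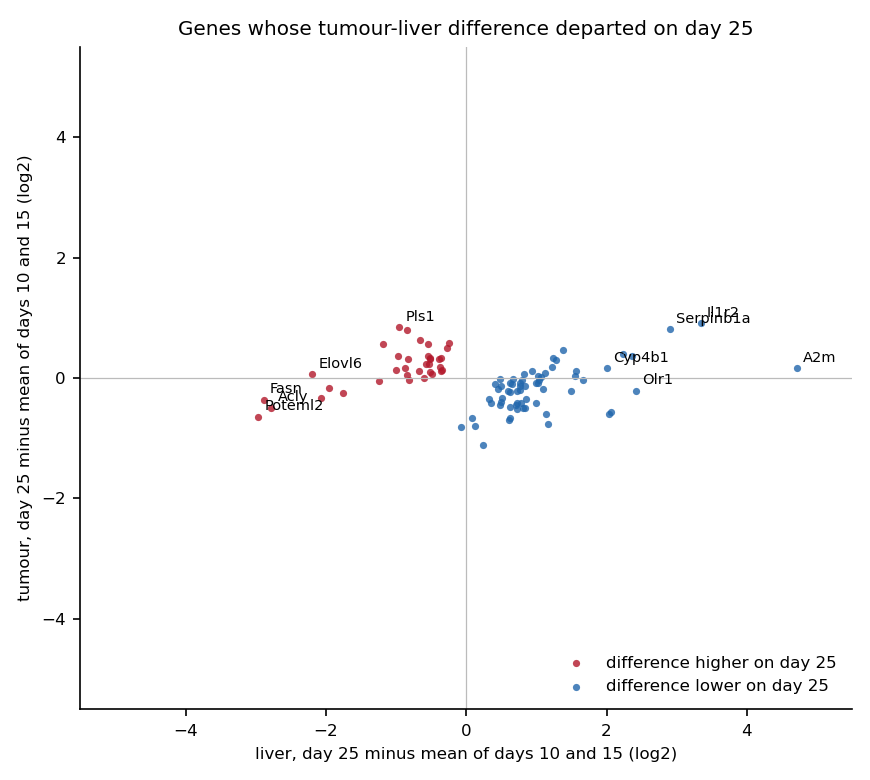
For the 98 genes whose tumour-liver difference on day 25 departed from the mean of days 10 and 15, the change of the tumour (vertical axis) against the change of the liver (horizontal axis), both as log2 day 25 minus the mean of the earlier days; red genes had a higher and blue genes a lower difference on day 25. Points spread along the horizontal axis, with A2m at 4.71 and Poteml2 at -2.97 in liver, and less along the vertical one.

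Of 29 genes of fatty acid and cholesterol synthesis 4 had a higher difference on day 25 than before and none a lower one, against 0.246% and 0.443% of all genes. Fatty acid synthase (Fasn) measured 10.37, 10.22 and 10.3 in the day 25 tumours and 7.82, 9.70 and 10.49 in their livers. Its log2 difference was -1.76 on day 10, -1.38 on day 15 and 0.96 on day 25, a change of 2.53 ± 0.56 (SE, adjusted p = 0.0499, and 0.0568 with the replicate block), with a change of -2.89 in the liver mean and -0.36 in the tumour mean. The day 25 difference itself was not called (adjusted p = 0.093) and was 0.17 without rat 7 and 0.20 without its liver. ATP citrate lyase (Acly), which supplies its acetyl-CoA, changed by 2.29 ± 0.47 (-1.69, -1.33 and 0.77 on days 10, 15 and 25, the last not called and 0.34 without rat 7). The elongase Elovl6 changed by 2.27 ± 0.49 (adjusted p = 0.0433, and 0.0531 with the block). Its day 25 difference of 0.94 was not called and was 0.23 without rat 7. The liver means of all 3 genes were lower on day 25 than on days 10 and 15. Their tumour means differed from the mean of the earlier days by -0.36 (Fasn), -0.49 (Acly) and 0.07 (Elovl6). Acacb changed by 1.51 ± 0.24 but was still called lower in tumour on day 25 (-0.62), though not with the replicate block. Its day 25 means, 4.64 in tumour and 5.26 in liver, lay below the lowest array median (5.98). The epithelial genes Pls1, an actin bundler of microvilli, and Cgn, a tight junction protein, changed by 1.80 ± 0.34 and 1.75 ± 0.30, and in these the tumour mean was higher (0.84 and 0.57) as well as the liver mean lower (-0.96 and -1.18).

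Genes of inflammation were among those whose difference became lower. Alpha-2-macroglobulin (A2m), the main acute phase protein of the rat, measured 9.92, 12.88 and 12.86 in the day 25 tumours and 12.8, 13.34 and 13.24 in their livers, where the liver mean had been 7.87 on day 10 and 8.97 on day 15. Its difference was 4.29 on day 10, 2.32 on day 15 and -1.24 on day 25, a change of -4.55 ± 0.78 (SE, adjusted p = 0.0201). The day 25 difference itself was not called (adjusted p = 0.115). It was called lower without the tumour of rat 8 (-1.74) or of rat 9 (-1.73) and was -0.26 without that of rat 7. A difference below 0 thus hung on the tumour of rat 7 and is not established. The decoy receptor Il1r2 changed by -2.43 ± 0.41, with a liver change of 3.34, and the neutrophil protease inhibitor Serpinb1a by -2.10 ± 0.43 (-1.16, and not called, on the mean of its 2 probe sets). The scavenger receptor Olr1 (-2.63 ± 0.48) and the collagen lysyl hydroxylase Plod2 (-2.63 ± 0.56) behaved alike: both were still higher in tumour on day 25, by 2.62 and 2.43, but less so than on day 10 (5.67 and 5.54) or day 15 (4.84 and 4.59). Cyp4b1 and Rab30 became more negative, to -2.57 and -2.77 on day 25, with a liver mean higher by 2.01 and 2.23; Rab30 lost its call with the replicate block (adjusted p = 0.0866).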

How the data were processed

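RNA from 21 rat tissue samples was measured on Affymetrix arrays. The deposited values are on a log2 scale, and the submitters' processing notes name RMA, which corrects background, normalises between arrays and summarises probes into probe sets; scanner files were not used here. No source used here gives the genome build behind the probe annotation. Of 31099 probe sets 20832 had 1 gene symbol, 436 several and 9831 none; the 14218 genes are those with 1 symbol, and 4526 of them had more than 1 probe set. A linear model with 7 group means was fitted to all 21 arrays with limma 3.58.1 (R 4.3.3). P-values were adjusted by Benjamini-Hochberg over 14218 genes, with calls made below 0.05. The groups shared 1 spread per gene, so an SE can differ from the spread of the day 25 arrays. For Abcb11 the SE was 0.78, with an SD of 2.3 over the 3 tumours and 0.12 over the 3 livers. On data simulated for the tumour-liver comparison, 78 of 100 genes changed by 1 log2 unit and 95 of 100 changed by 2 were recovered. The simulation changed only 200 of 14218 genes and had independent noise without a rat effect. In the data 50.1% of genes were called, so the simulated shares do not give the sensitivity here. Samples with 1 replicate number within a day came from the same rat, per the labels. Their deviations from the group means correlated at 0.04 to 0.30. The number of arrays limits the precision.

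Genes named in the text are the called, non-overlapping genes with the largest changes (15 each way). Of the rest of these, those with the largest change in the rat that changed least (8 each way) were also named. So were the 10 that varied most over the rats, and up to 4 called members each way and 1 uncalled member of each list. The 10 each way with the largest change against the earlier days complete them. Erbb2 and cell type markers were added, and Plg and Baat were chosen for their motifs. The members and gene lists were chosen with earlier results of these data known. Sequences came from RefSeq. The alternatives were a replicate block, the 6 arrays alone, other scalings, filters and probe set choices, an intensity trend and leaving out arrays.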

Additional observations from a re-analysis of the deposited data

Results flagged for a closer look

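The 98 genes whose tumour-liver difference departed on day 25 from days 10 and 15 are differences between groups, tested in limma as a contrast of contrasts. Of the 10 largest in each direction, those toward tumour were Fasn (2.53), Poteml2 (2.33), Acly (2.29), Elovl6 (2.27), Pls1 (1.80), Nox4 (1.79), Cgn (1.75), Hykk (1.75), Mab21l3 (1.64) and Acacb (1.51), all as the change of the log2 difference. Those toward liver were A2m (-4.55), Olr1 (-2.63), Plod2 (-2.63), Rgs4 (-2.62), Il1r2 (-2.43), Serpinb1a (-2.10), Tnfrsf21 (-2.01), Chsy1 (-1.93), Cyp4b1 (-1.84) and Rab30 (-1.83). With rat as a replicate block Rgs4 (adjusted p = 0.0537) and Chsy1 (adjusted p = 0.0725) lost their calls, as did Fasn, Elovl6 and Rab30. Each of the 20 genes lost its call with at least 1 array or rat left out.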

How the results depend on the processing

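The count of called genes stayed between 4813 and 8144 and that past 2-fold between 2449 and 3034 under all alternatives run. Quantile normalization gave 3397 genes higher and 3555 lower (48.9% higher). The count of genes that departed from the earlier days was less stable. It was 157 with rat as a fixed replicate block and 263 with rat as a random replicate block, 208 against day 10 alone and 0 against day 15 alone, where 1283 genes had an unadjusted p under 0.05 in limma. With 1 array or rat left out it lay between 5 and 273. The cause was not tested. Other settings gave 78 to 133, the highest with dim genes left out (8574 genes tested).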
